A study of Mus musculus with 162 samples.

Results

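Mas-related G protein-coupled receptors were measured by bulk RNA-seq in a mouse model of atopic dermatitis with chronic itch, in which MC903 (calcipotriol, a vitamin D analog) was applied daily to the skin and ethanol served as the vehicle. The genes described here were 9 named members of the family, Mrgpra3, Mrgprb4, Mrgprb5, Mrgprd, Mrgprx1, Mrgpre, Mrgprf, Mrgprb1 and Mrgprb2, of 46078 genes counted in each library. They were chosen by name, and all 9 were found through their Ensembl identifiers. Mice were adult C57BL/6 males of 8 to 12 weeks. MC903 (0.2 mM) was given as 20 µL on the cheek, or as 40 µL on the rostral back where spinal cord was collected.

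Of 162 libraries, 65 were labelled trigeminal ganglion, 70 skin and 27 spinal cord, with 15931871 to 67342879 counts each. Wild-type mice without injection were sampled on day 1 (6 hours after the first application), day 2, day 5, day 8 and day 12. On day 8, wild-type mice injected with PBS or with 250 µg of anti-Gr1 (aGr1, an antibody that depletes neutrophils) were also sampled. TSLPR KO mice, which lack the receptor for the epithelial cytokine TSLP, were sampled on days 8 and 12, and BLT1 KO mice, which lack a leukotriene B4 receptor, gave skin on day 8. Spinal cord came from wild-type mice of day 8 without injection, with PBS or with aGr1. The labels give no cell type or promoter for either knockout. Each group had MC903 and ethanol libraries, numbering 2 to 8 per treatment. The labels do not say whether replicates came from separate animals, so p-values measure the spread between these libraries, which may be partly technical.

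Mas-related receptors are a rodent-expanded family of peptide and small-molecule receptors, most of which are found in small-diameter sensory neurons that innervate skin. Several mark separate neuron classes and trigger itch or pain when activated. A few members are instead found in mast cells, where they release granule contents in response to basic peptides and drugs.

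The tissue labels were checked against marker genes. Of the 9 wild-type day 12 libraries labelled ganglion, 6 held at most 3 counts of Mrgprd, and of the 9 labelled skin, 6 held over 1000, so all wild-type day 12 libraries were left out. One MC903 skin library of day 2 (replicate 3) held sensory neuron genes at a summed 3502 cpm (counts scaled to the library total, per 1000000), against 8.59 to 140 in the skin libraries used, and was left out too. In ganglia, MC903 replicate 1 of day 1 summed to 3953 cpm over the same 15 neuron genes and replicate 2 to 5307, against 9398 and 10244 in the other two. This left 56 ganglion, 60 skin and 27 spinal cord libraries. Crlf2, which encodes TSLPR, lay at 0.0691 to 1.34 cpm in TSLPR KO skin against 2.24 to 15.4 in wild-type skin. In ganglia it lay at 0 to 2.06 cpm in TSLPR KO against 0.117 to 7.58 cpm in wild type, so the genotypes overlapped there. Ltb4r1, which encodes BLT1, lay at 2.33 to 15.1 cpm in BLT1 KO skin against 2.52 to 77.6 in wild-type skin, so these genotypes overlapped too.

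All 9 genes lie on chromosome 7 (GRCm38). The cluster of Mrgpra3 (chr7:47588950-47601372), Mrgprx1 (chr7:48020971-48027597), Mrgprb5 (chr7:48167983-48169019), Mrgprb4 (chr7:48198070-48199288), Mrgprb1 (chr7:48444113-48456342) and Mrgprb2 (chr7:48550965-48558086) is on the minus strand. Mrgpre (chr7:143778363-143784500, minus strand), Mrgprf (chr7:145300828-145309557) and Mrgprd (chr7:145314835-145324086, both plus strand) lie farther along. Mrgprb4 and Mrgprb5 are neighbours with coding sequences 84.3% identical, the closest of the 36 pairs, and Mrgprb1 and Mrgprb2 share 70.2%. Reads of 50 bases could seldom be confused: 0.81% of the 50-base windows of Mrgprb5 and 1.45% of those of Mrgprb4 recurred in another gene, and 0% of those of Mrgprb1, Mrgprb2, Mrgprd and Mrgprf did. The share was 7.14% for Mrgpra3, mostly with Mrgpra4, and 5.84% for Mrgprx1, so these counts are less certain. Mrgpre overlaps Gm22064 on the opposite strand, and the strand setting of the counting is not given in the sources used here.

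The sequences before the starts of Mrgprb5 and Mrgprb4 and of Mrgprb1 and Mrgprb2 are shown because the values of each pair are set side by side below. They were taken from the RefSeq promoter table (GRCm38.p6), which held 7 of the 9 genes, read 5′ to 3′ on the minus strand, and were printed up to the first base of the gene model of the annotation. Capitals mark the motifs searched for (TGTGGT of Runx factors, AGGTCA of nuclear receptors, AGATAA of GATA-type factors, CACGTG or E-box, and TATAAA or TATA box, on both strands).
Mrgprb5 (chr7:48169020-48169235): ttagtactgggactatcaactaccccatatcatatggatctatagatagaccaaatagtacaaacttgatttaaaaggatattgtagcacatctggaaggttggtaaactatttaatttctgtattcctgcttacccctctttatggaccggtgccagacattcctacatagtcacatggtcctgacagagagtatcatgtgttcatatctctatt
Mrgprb4 (chr7:48199289-48199428): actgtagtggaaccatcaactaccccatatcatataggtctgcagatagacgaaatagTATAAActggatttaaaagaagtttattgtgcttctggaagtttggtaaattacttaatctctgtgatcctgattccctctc
Mrgprb1 (chr7:48456343-48456592): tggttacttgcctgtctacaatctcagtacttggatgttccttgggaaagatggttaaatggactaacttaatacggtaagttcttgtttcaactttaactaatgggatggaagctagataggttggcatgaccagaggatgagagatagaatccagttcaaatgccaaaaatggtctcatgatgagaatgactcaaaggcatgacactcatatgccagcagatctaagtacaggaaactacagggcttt
Mrgprb2 (chr7:48558087-48558336): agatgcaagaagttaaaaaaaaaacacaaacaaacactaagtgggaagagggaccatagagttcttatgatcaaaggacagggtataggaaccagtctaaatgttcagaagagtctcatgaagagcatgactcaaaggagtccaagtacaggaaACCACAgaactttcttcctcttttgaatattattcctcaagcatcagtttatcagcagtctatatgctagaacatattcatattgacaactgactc

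Over the full 250 bases before the RefSeq start, Mrgprb4 and Mrgprb5 were 82.4% identical, whereas Mrgprb1 and Mrgprb2 were 49.6% identical, within the 46.8% to 53.6% of the other pairs. TATAAA stood in the window of Mrgprb4 and not in that of Mrgprb5, and 12.4% of 32851 promoter windows held it. The Runx letters stood in the window of Mrgprb2 (minus strand) and not in that of Mrgprb1, and 14% of all windows held them. Elsewhere AGATAA was found before Mrgprx1 and AGGTCA before Mrgpre and Mrgprd, motifs that 9.99% and 14% of windows held. CACGTG was in none of the 7. A match or its absence describes letters in these windows only.

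In ethanol-treated ganglia (27 libraries), Mrgprb1 and Mrgprb2 were near the limit of detection and the other members lay above it. Per kilobase of exon, Mrgprd, the beta-alanine receptor that marks non-peptidergic nociceptors, had the highest level at 20.5 ± 8.23 cpm per kb (SD). Mrgprb5 (9.95 ± 2.13) and Mrgprb4 (9.39 ± 2.66), which marks neurons that respond to gentle stroking, followed at levels that did not separate, since Mrgprb5 was higher in 17 of 27 libraries. Mrgprx1 (6.06 ± 2.39), a receptor for proenkephalin-derived peptides, and Mrgpra3 (5.67 ± 1.62), the chloroquine receptor of itch neurons, did not separate either, as Mrgprx1 was higher in 15 of 27. Mrgpre, a receptor with no settled ligand, lay at 4.4 ± 1.17 and Mrgprf, another such receptor, at 1.39 ± 0.378 cpm per kb. Mrgprb1 (0.159) and Mrgprb2 (0.122), both genes of mast cells, were at or under 3 counts in 5 and 13 of the 27 libraries.

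The order was different in skin and spinal cord. In ethanol-treated skin (30 libraries), Mrgprb2 led at 6.47 ± 4.45 cpm per kb, Mrgprf lay at 4.04 ± 1.71, Mrgprb1 at 1.72 ± 0.866 and Mrgpre at 0.569 ± 0.226. Mrgprb2 exceeded Mrgprf in 21 of 30 libraries and Mrgprf exceeded Mrgprb1 in 29 of 30. Mrgpra3, Mrgprb4, Mrgprb5, Mrgprd and Mrgprx1 were at or under 3 counts in 25 to 30 of those 30 libraries, with highest counts of 2 to 27. In ethanol-treated spinal cord (13 libraries), Mrgpre had 3.14 ± 0.894 cpm per kb and Mrgprf 0.768 ± 0.483, while Mrgprb4, Mrgprb5, Mrgprd and Mrgprb2 had 0 counts in all 13, which leaves up to 3 counts per library undetected. Levels also moved between groups of ganglia whatever the treatment. Mrgprd in ethanol libraries lay at 31.5 to 62.8 cpm in the uninjected wild-type and TSLPR KO day 8 groups and at 80 cpm or more in the PBS, aGr1 and TSLPR KO day 12 groups. Group and library preparation cannot be told apart in these levels, so treatments were compared only within a group.

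The ganglion comparison asked which of these receptors changed in bulk trigeminal ganglia, which hold other neurons and glia besides the neurons that innervate MC903-treated skin. Mrgprb5 was called in more groups than any other member. Its log2 fold change with MC903 was negative in all 8 groups and the libraries did not overlap in 7 of them, and it fell past the threshold (adjusted p under 0.1, quasi-likelihood F test of edgeR, Benjamini-Hochberg over the genes tested) in the 3 wild-type day 8 groups. Mrgprb4 fell in 1 group. Mrgprd, Mrgpra3, Mrgpre, Mrgprf, Mrgprb1, Mrgprb2 and Mrgprx1 passed in no single group. In bulk tissue, fewer cells of a type and less RNA per cell cannot be told apart.

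On day 8 without injection, Mrgprb5 had 14.2, 12.4, 11.5, 13.7 and 11.2 cpm in the ethanol libraries and 3.97, 5.37, 8.65, 6.72 and 8.27 cpm with MC903. Every MC903 library lay under every ethanol library. The label of 1 ethanol library names 2 numbers, and it was counted as 1 library. The log2 fold change was -0.97 ± 0.185 (SE, edgeR adjusted p = 0.0846), and Mrgprb5 was the 1 member called of 9, where 0.16% of 25600 genes were called, 0.0352% were called lower, and 0.297% had MC903 libraries that all lay below ethanol. This call depended on how the libraries of 2 label styles were combined. Within the first style (2 against 2) the log2 fold change was -1.50 (edgeR adjusted p = 0.0315) and within the second (3 against 3) it was -0.63 (edgeR adjusted p = 0.884), and the call held in 4 of 10 fits with 1 library removed.

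The injected groups gave the same direction in separate libraries. After PBS, Mrgprb5 had 8.1, 8.13 and 6.92 cpm with ethanol and 3.66, 4.32, 2.98 and 3.54 cpm with MC903, a log2 fold change of -1.09 ± 0.136 (edgeR adjusted p = 0.00115). The groups were well apart. Mrgprb4 had 12.2, 9.7 and 10.8 cpm against 6.02, 6.21, 6.49 and 6.26 cpm in the same libraries, a log2 fold change of -0.80 ± 0.105 (edgeR adjusted p = 0.00145). Its MC903 libraries also lay below all ethanol libraries. These were 2 of the 8 members tested in the PBS group, where 3.36% of 23708 genes were called, 1.45% lower, and 5.68% lay lower with no overlap. Both calls survived the loss of any 1 of the 7 libraries.

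After aGr1, Mrgprb5 had 10.9, 7.51, 7.69 and 10.1 cpm with ethanol and 3.53, 4.92, 4.08 and 3.29 cpm with MC903, a log2 fold change of -1.18 ± 0.176 (edgeR adjusted p = 0.00515). It was the 1 member called of 9, where 1.88% of 24233 genes were called, 1.01% lower, and 4.62% lay lower with no overlap, and the call survived the loss of any 1 of the 8 libraries. The MC903 effect on Mrgprb5 after aGr1 differed from that without injection by a log2 of -0.20 (approximate 95% interval -0.737 to 0.331, edgeR adjusted p = 0.912). A difference was thus not detected, within an interval that is too narrow for so few libraries. The reference mice had no injection, so aGr1 and the injection itself cannot be told apart in this difference. Mrgprb4 in the aGr1 libraries had 7.19, 11.2, 9.07 and 8.4 cpm with ethanol and 5.75, 9.18, 8.13 and 8.68 cpm with MC903, which overlapped.

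Earlier times and the knockout gave the following values for Mrgprb5. On day 1 it had 12.1, 12.7, 8.3 and 12.5 cpm with ethanol and 8.27, 12.2, 13.8 and 12.8 cpm with MC903, a log2 fold change of -0.01 ± 0.225 with overlapping groups (5.55% of 25319 genes did not overlap). By day 5 it had 9.75, 9.84 and 11.8 cpm against 4.04, 5.34 and 5.81 cpm, a log2 fold change of -1.004 ± 0.23 (edgeR unadjusted p = 0.00135, adjusted p = 1). The day 5 libraries did not overlap, which held in the lower direction for 5.46% of 24300 genes, and 0.00823% of genes were called. On day 2 it had 7.09 and 6.44 cpm against 3.94, 6.17 and 4.41 cpm, a log2 fold change of -0.49 ± 0.262 (edgeR adjusted p = 0.725). On day 2, 12.2% of 24092 genes lay lower with no overlap, and 0% were called (0 in edgeR, with 1527 at an unadjusted p under 0.05).

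In TSLPR KO ganglia of day 12, Mrgprb5 had 10.2, 10.9, 8.97 and 11.4 cpm with ethanol and 0.755, 3.83, 4.46 and 7.76 cpm with MC903. All MC903 libraries lay below the ethanol libraries, as for 2.8% of 25969 genes, and 1 of them was far lower than the rest. The log2 fold change was -1.29 ± 0.409 (edgeR adjusted p = 0.505), where 0.304% of genes were called. On day 8 the knockout had 11.5 and 12.7 cpm against 11 and 4.58 cpm, a log2 fold change of -0.53 ± 0.445 (edgeR adjusted p = 0.728), in a design where 22.3% of genes lay lower with no overlap and 0% were called (0 of 23402, with 1886 at an unadjusted p under 0.05). The effect of MC903 in the knockout differed from wild type on day 8 by a log2 of 0.43 (approximate 95% interval -0.422 to 1.28, edgeR adjusted p = 0.838).

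**Figure D1:**
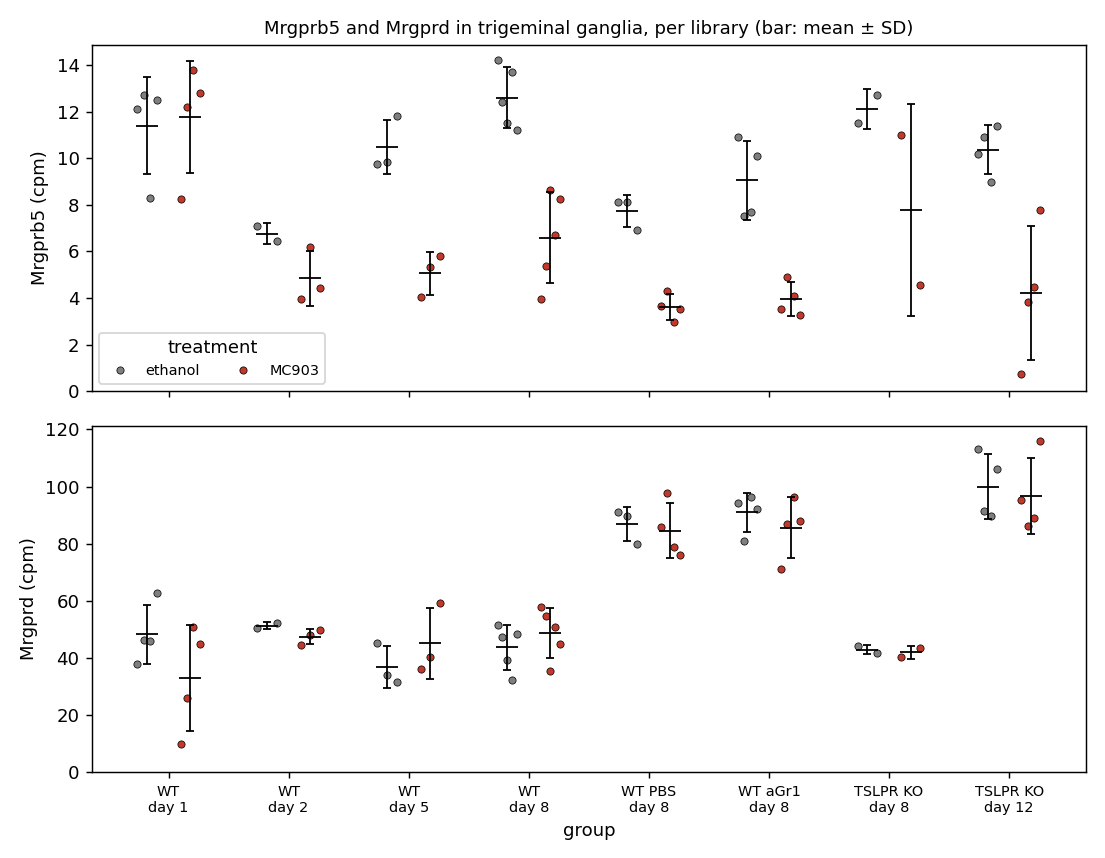
Level in cpm of Mrgprb5 and Mrgprd (vertical axes) in each trigeminal ganglion library, by group (horizontal axis) and treatment, with the mean and SD as bars. Mrgprb5 is lower in every MC903 library than in every ethanol library in 7 of 8 groups, from 3.66, 4.32, 2.98 and 3.54 cpm against 6.92 to 8.13 after PBS, while Mrgprd overlaps between treatments in most groups.

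A fit over the 6 groups from day 5 on, with 1 MC903 effect common to them, gave a log2 fold change for Mrgprb5 of -1.05 ± 0.128 (edgeR adjusted p = 1.4e-07). The fit uses the libraries given above and adds no independent ones. Mrgprb5 was past the threshold in 13 of 13 alternative settings of it. The second member called was Mrgprx1, which rose by a log2 of 0.33 ± 0.0891 (edgeR adjusted p = 0.0196), past the threshold in 10 of 13 alternative settings. These were 2 of the 9 members, where 7.38% of 29634 genes were called, 3.25% lower and 4.12% higher. Mrgprb4 had a log2 fold change of -0.31 ± 0.115 (edgeR adjusted p = 0.112).

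Mrgprx1 had positive log2 fold changes in 6 of 8 groups, none of which passed alone. On day 5 it had 9.12, 4.63 and 5.81 cpm with ethanol and 9.78, 10.5 and 8.36 cpm with MC903. In TSLPR KO ganglia of day 12 it had 7.25, 6.35, 5.8 and 6.63 cpm against 9.3, 7.97, 7.22 and 9.6 cpm. Both pairs of groups overlapped by 1 library. On day 8 without injection the log2 fold change was -0.00 ± 0.17, with 6.92 to 16.7 cpm in ethanol libraries and 8.33 to 11.7 cpm with MC903. With the wild-type day 12 libraries as labelled, the common effect on Mrgprx1 turned to -0.25 on the log2 scale.

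Mrgprd, Mrgpra3, Mrgprf and Mrgpre did not pass in any ganglion comparison. Mrgprd had 51.5, 47.4, 39.3, 32.3 and 48.3 cpm with ethanol and 57.8, 54.6, 35.5, 51 and 44.8 cpm with MC903 on day 8 without injection, and log2 fold changes over the 8 groups ran from -0.59 (day 1, where MC903 replicates 1 and 2 had few neuron counts) to 0.32. Mrgpra3 ran from -0.52 to 0.24. Its lowest value came after aGr1, where it had 9.76, 7.71, 9.73 and 12.4 cpm against 5.17, 5.44, 10.6 and 6.12 cpm, with 1 MC903 library above 3 of the ethanol libraries. Mrgprf in the same libraries had 2.14, 3.2, 2.34 and 2.63 cpm against 2.27, 0.71, 0.936 and 1.18 cpm (log2 fold change -1.02, edgeR adjusted p = 0.163). Mrgpre ran from -0.54 to 0.54, with groups that did not overlap in the lower direction after aGr1 and in the higher direction in TSLPR KO ganglia of day 8, where 17.4% of genes lay higher with no overlap. Mrgprb1 and Mrgprb2 were low in ganglia, at ethanol means of 0.666 and 0.254 cpm. Mrgprb1 ran from -0.47 to 0.94 on the log2 scale over the 8 groups and Mrgprb2 had too few counts for a test after PBS.

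**Figure D2:**
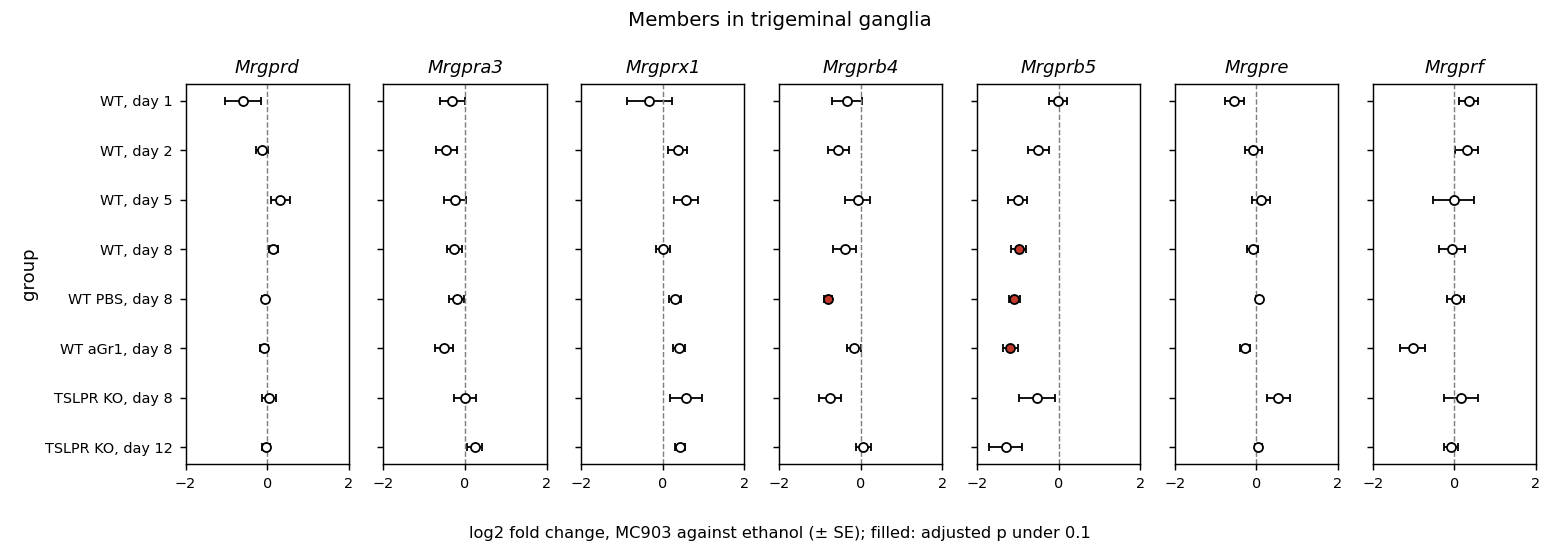
Log2 fold change of MC903 against ethanol (horizontal axis, ± SE from edgeR) in each trigeminal ganglion group (vertical axis). All members but Mrgprb1 and Mrgprb2 are drawn, with filled points past an adjusted p of 0.1. The filled points are Mrgprb5 in the 3 wild-type day 8 groups (-0.97, -1.09 and -1.18) and Mrgprb4 after PBS (-0.80).

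Within a library, the ratio of Mrgprb5 to Mrgprd compares both genes at equal depth. On day 5 the ratio of counts was 0.215 to 0.374 with ethanol and 0.0981 to 0.133 with MC903, and after PBS it was 0.0865 to 0.0907 against 0.0379 to 0.0466. The ratio was lower with no overlap in 4 of 8 groups (day 5, PBS, aGr1 and TSLPR KO day 12). Two-sided exact permutation tests, adjusted over the 8 groups, gave adjusted p from 0.0762 to 0.667. The lowest value, shared by day 8 without injection, aGr1 and TSLPR KO day 12, is under the 0.1 used in ganglia and over 0.05. With 4 libraries against 4 the smallest unadjusted p that the exact test allows is 0.0286. On day 8 without injection the groups overlapped (0.233 to 0.426 against 0.0688 to 0.244). The ratio of Mrgprb5 to Mrgpra3 was lower with no overlap in 4 of 8 groups (exact permutation, adjusted p from 0.152 to 1), and that of Mrgprb5 to its neighbour Mrgprb4 in 2 of 8 (aGr1 and TSLPR KO day 12, exact permutation, adjusted p from 0.114 to 1). After PBS, where both genes were called lower, the ratio of Mrgprb5 to Mrgprb4 overlapped between the treatments. How often ratios of other gene pairs separate was not tested.

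Other genes of the neuron classes moved beside these receptors in the fit from day 5 on, where 7.38% of all genes were called. Of 8 genes of the Nppb class, 5 rose and 0 fell, with Il31ra (the itch cytokine receptor) up by a log2 of 1.11 ± 0.0541, Osmr, its partner subunit, by 0.71 ± 0.0487 and Nppb, an itch neuropeptide, by 1.41 ± 0.159 (edgeR adjusted p from 6.49e-20 to 1.99e-08). Of 8 genes of the Mrgprd class, 3 fell and 2 rose, with Prkcq at -0.47 ± 0.0577 on the log2 scale. Of 7 genes of the Mrgpra3 class, 1 fell (Agtr1a) and 1 rose (Trpv1, the capsaicin receptor, by 0.35 ± 0.0575). Of 20 signalling partners of the receptors, such as Gq subunits, phospholipases and channels, 3 fell and 4 rose. Median log2 fold changes of these lists were 0.58, -0.07, 0.04 and -0.03, against 0.00 over all genes tested. Of 15 general sensory neuron genes, 7 rose and 0 fell, with a median log2 fold change of 0.17. Of 9 glial genes, 1 rose. Among the 24 other itch receptor genes, 8 rose and 0 fell. The part of any of these lists in the values of Mrgprb5 was not tested.

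For each member, the 3 genes whose deviations from their group means were most like its own were sought over the 56 ganglion libraries (Pearson's r of log2(cpm + 0.5), 16958 genes, a description that shares libraries, depth and dissection). Mrgprd was followed most closely by Plxnc1 (r = 0.95), Sv2c (0.91) and L1cam (0.91). Mrgpra3 was closest to Gna14 (0.68), a Gq-type subunit. Mrgprb4 was closest to Cpne4 (0.76), Mrgprb5 to Gm42863 (0.76), Mrgprx1 to Kif1a (0.84), Mrgpre to Tnks1bp1 (0.81) and Mrgprf to Pcolce (0.74). Between Mrgprb4 and Mrgprb5 r was 0.19, between Mrgprb4 and Mrgprd 0.59, and between Mrgprx1 and Mrgprd 0.68.

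The skin comparison asked what became of the mast cell receptors at the treated site. Mrgprb2, the mast cell receptor for basic secretagogues, had a lower mean with MC903 in all 9 groups and fell past the threshold (edgeR adjusted p under 0.05) in 5 of them. Mrgprb1, its neighbour on chromosome 7, rose in 2 groups and fell in none, although the reads came from the same libraries. Mrgprf and Mrgpre passed in no group, with log2 fold changes from -0.67 to 0.44 and from -0.83 to 0.31. Mrgprb4 and Mrgprb5 had too few counts for a test in any skin group, and Mrgpra3 and Mrgprd passed in none. Mrgprx1 was called higher in 2 groups at few counts (after aGr1 and in TSLPR KO skin of day 12).

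On day 8 without injection, the skin labels of the first style give 2 MC903 libraries the replicate number 1 and 2 ethanol libraries the number 3. No pair of libraries in a group agreed within sampling noise, so each was counted as a library of its own. Mrgprb2 ranged from 6.87 to 28.9 cpm (median 9.66) in 6 ethanol libraries and had 3.11, 4.03, 4.46, 2.84 and 3.34 cpm with MC903. The groups did not overlap. The log2 fold change was -1.77 ± 0.328 (edgeR adjusted p = 0.00197), the call survived the loss of any 1 of the 11 libraries, and within the label styles it was -1.40 (edgeR adjusted p = 0.0158) and -2.29 (edgeR adjusted p = 0.0156). Mrgprb1 ranged from 3.2 to 8.51 cpm (median 5.57) with ethanol and had 8.65, 15, 14.8, 8.14 and 7.47 cpm with MC903, a log2 fold change of 0.89 ± 0.255 (edgeR adjusted p = 0.0231). Its groups overlapped. Its call was lost without any 1 of 3 libraries of the first style (2 MC903 and 1 ethanol), and held in the first label style (1.29, edgeR adjusted p = 0.0261) but not in the second (0.36, edgeR adjusted p = 0.485). These were 2 of the 7 members tested, where 23.4% of 26175 genes were called, 11.2% lower and 12.2% higher, and 5.09% lay lower with no overlap.

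The other groups gave Mrgprb2 as follows. On day 5 it had 18.8, 40.3 and 4.45 cpm with ethanol and 3.11, 2.27 and 1.75 cpm with MC903, a log2 fold change of -3.13 ± 0.617 (edgeR adjusted p = 0.015, in a group where 14.9% of 24226 genes were called, 6.78% lower, and 11.6% lay lower with no overlap). One ethanol library was close to the MC903 libraries, and the call was lost without MC903 replicate 2 or replicate 3. In BLT1 KO skin it had 25, 25.5 and 29 cpm against 4.77, 2.48 and 4.12 cpm, a log2 fold change of -2.85 ± 0.234 (edgeR adjusted p = 6.72e-05, with 28.6% of 25771 genes called, 14.6% lower, and 19.9% lower with no overlap). Its 3 ethanol libraries lay close together. After aGr1 it had 4.52, 5.12, 9.31 and 6.35 cpm against 2.7, 2.25, 2.84 and 4.46 cpm, a log2 fold change of -1.40 ± 0.267 (edgeR adjusted p = 0.00423, with 32.6% of 25287 genes called, 17.5% lower, and 7.34% lower with no overlap).

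In TSLPR KO skin of day 8, Mrgprb2 had 19.8 and 12.2 cpm with ethanol and 7.97, 3.68 and 4.05 cpm with MC903, a log2 fold change of -1.60 ± 0.348 (edgeR adjusted p = 0.0474), where 2.44% of 24292 genes were called, 1.14% lower, and 16.6% lay lower with no overlap. This call was lost without MC903 replicate 2, MC903 replicate 3 or ethanol replicate 1. On day 12 the knockout had 3.28, 5.72 and 2.64 cpm against 1.09, 2.72, 3.34 and 1.17 cpm, which overlapped (log2 fold change -1.06 ± 0.388, edgeR adjusted p = 0.121, with 10% of 25432 genes called). After PBS it had 9.18, 19.2 and 6.95 cpm against 3.51 and 1.62 cpm, a log2 fold change of -2.18 ± 0.561 that did not pass (edgeR adjusted p = 0.0985, with 3.99% of 24416 genes called and 17.2% lower with no overlap). On day 1 (-0.79 ± 0.319) and day 2 (-0.61 ± 0.269) the fold changes were the smallest of the 9. Those groups did not pass either (edgeR adjusted p = 0.128 and 0.606, with 13% and 0.257% of genes called). The day 1 libraries overlapped (12.8% of genes did not), and the day 2 libraries of Mrgprb2 did not, as for 19.5% of 23361 genes in the lower direction.

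The MC903 effect on Mrgprb2 did not pass a test of difference from the uninjected wild-type day 8 effect in the 3 groups compared, where 4.56% (aGr1), 0.177% (TSLPR KO) and 6.95% (BLT1 KO) of all genes did. It differed by a log2 of 0.39 after aGr1 (95% interval -0.518 to 1.3, edgeR adjusted p = 0.694), by 0.21 in TSLPR KO skin (-0.889 to 1.31, edgeR adjusted p = 0.918) and by -1.02 in BLT1 KO skin (-1.98 to -0.0723, edgeR adjusted p = 0.232). The intervals are wide, even though intervals from the SE and the normal distribution are too narrow with few libraries. For aGr1, the antibody and the injection itself cannot be told apart against this uninjected reference. The BLT1 KO interval lies wholly below no change, whereas its unadjusted p was 0.0504 (edgeR). From day 5 on, the common effect on Mrgprb2 was -1.97 ± 0.202 on the log2 scale (edgeR adjusted p = 3.93e-11), past the threshold in 14 of 14 alternative settings, in a fit where 46.8% of 30219 genes were called.

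**Figure D3:**
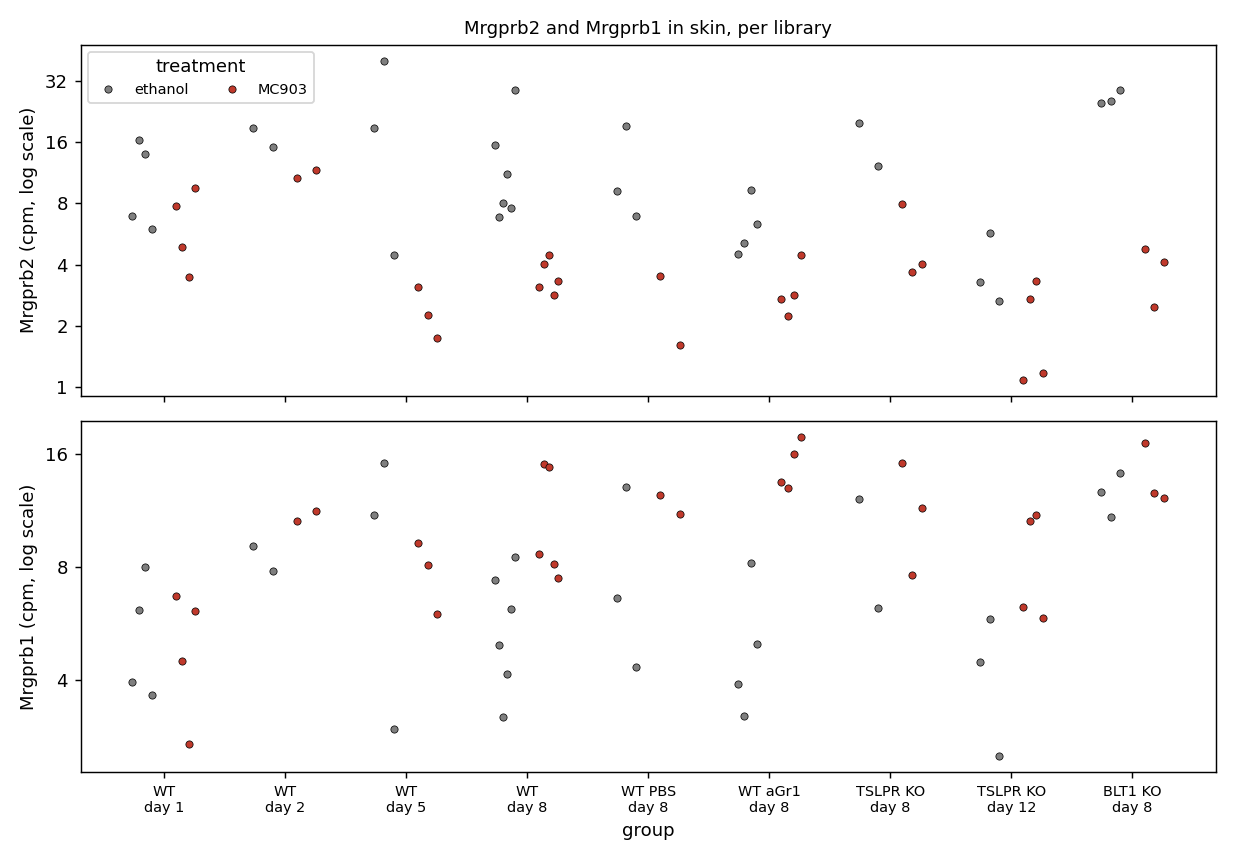
Level in cpm of Mrgprb2 and Mrgprb1 (vertical axes, log scale) in each skin library, by group (horizontal axis) and treatment. Mrgprb2 with MC903 lies below all ethanol libraries in 7 of 9 groups, down to 1.75 to 3.11 cpm on day 5, while Mrgprb1 overlaps between treatments in most groups and lies highest with MC903 after aGr1, at 13 to 17.7 cpm.

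Mrgprb1 was called higher in 2 of the 9 groups, day 8 without injection and aGr1, and its log2 fold change was negative on day 1 (-0.16) and day 5 (-0.31). After aGr1 it had 3.9, 3.22, 8.18 and 5 cpm with ethanol and 13.5, 13, 16 and 17.7 cpm with MC903, a log2 fold change of 1.24 ± 0.224 (edgeR adjusted p = 0.0032) with no overlap (15.1% of genes were called higher and 22.4% lay higher with no overlap), and the call survived the loss of any 1 of the 8 libraries. In TSLPR KO skin of day 12 it had 4.48, 5.82 and 2.51 cpm against 6.25, 10.6, 11 and 5.85 cpm (log2 fold change 0.82 ± 0.279, edgeR adjusted p = 0.1, over the skin threshold of 0.05), also without overlap, as for 14.6% of genes in that direction. In BLT1 KO skin it had 12.7, 10.9 and 14.2 cpm against 17.1, 12.6 and 12.2 cpm (log2 fold change 0.10 ± 0.181), which overlapped, in the same libraries where Mrgprb2 fell about 7.22-fold. On day 5 the Mrgprb1 libraries overlapped at 11, 15.1 and 2.96 cpm against 9.29, 8.1 and 6.01 cpm. Its common effect from day 5 on was 0.58 ± 0.147 on the log2 scale (edgeR adjusted p = 0.00108).

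The ratio of Mrgprb1 to Mrgprb2 within each library separated the treatments in every group. On day 8 without injection the ratio of counts was 0.295 to 0.808 with ethanol and 2.24 to 3.71 with MC903, a difference of 2.62 on the log2 scale (two-sided exact permutation p = 0.00433, adjusted over 9 groups 0.039). On day 5 it was 0.374 to 0.667 against 2.99 to 3.56. In BLT1 KO skin it was 0.428 to 0.508 against 2.97 to 5.08, and in TSLPR KO skin of day 12 it was 0.952 to 1.36 against 3.3 to 5.76. The ratio was already higher without overlap on day 1, 6 hours after the first application, at 0.375 to 0.609 with ethanol and 0.642 to 0.925 with MC903 (two-sided exact permutation p = 0.0286, adjusted 0.0857). The day 1 shift was 0.61 on the log2 scale, against 0.96 on day 2 (0.483 to 0.517 with ethanol and 0.96 to 0.992 with MC903) and 2 to 2.99 in the later groups. The ratio was higher without overlap in 9 of 9 groups, with adjusted p from 0.039 to 0.333. How often other gene pairs separate in this way was not tested. In the smallest groups separation weighs little: the unadjusted exact permutation p was 0.333 on day 2 (2 libraries against 2). It was 0.2 after PBS and in TSLPR KO skin of day 8. Apart from day 8 without injection, no group had an adjusted p under 0.05, and the smallest unadjusted p of the exact permutation test with 4 libraries against 4 is 0.0286.

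**Figure D4:**
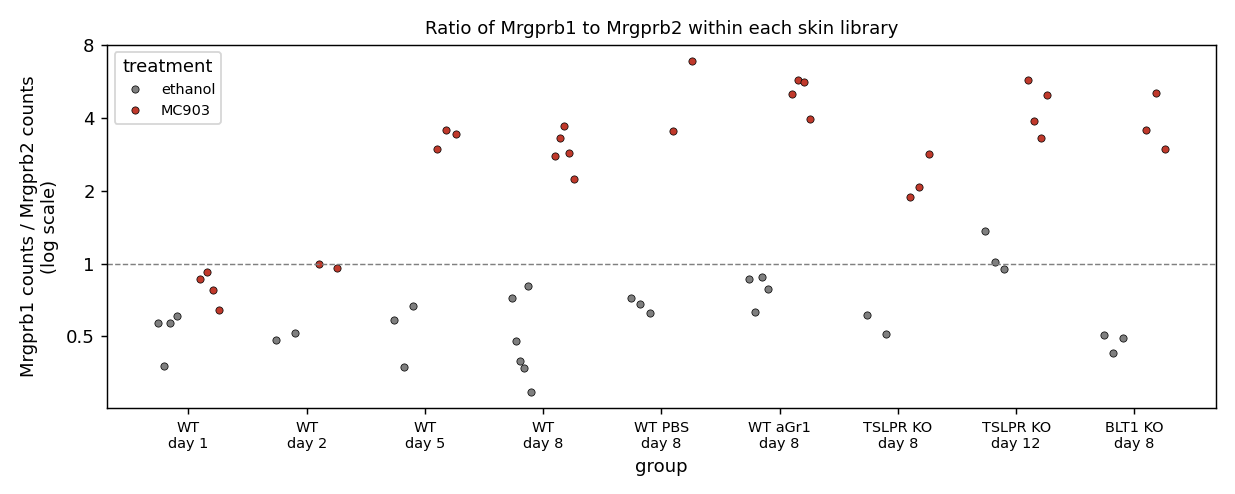
Ratio of Mrgprb1 to Mrgprb2 counts (vertical axis, log scale) in each skin library, by group (horizontal axis) and treatment. In all 9 groups the MC903 libraries lie above the ethanol libraries, by the least on day 1 (0.642 to 0.925 against 0.375 to 0.609) and with ratios of 2.24 to 3.71 on day 8 without injection. How often other gene pairs separate in this way was not tested.

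Mast cell and basophil genes were set beside these receptors. Of 12 mast cell genes, 11 rose and 0 fell on day 8 without injection, where 23.4% of all genes were called. The median log2 fold change of the 12 was 1.35, against -0.03 over all genes. The list went from a summed 108 to 163 cpm with ethanol to 227 to 432 cpm with MC903. Examples are Cma1, a mast cell chymase (1.26 ± 0.2259), Tpsb2, a tryptase (1.44 ± 0.2737), and Mcpt4, another chymase (0.81 ± 0.2295), all on the log2 scale. Hdc, which makes histamine, rose from 2.25 ± 0.865 to 49.7 ± 24.7 cpm (SD). Kit, the stem cell factor receptor, had a log2 fold change of -0.13 ± 0.1875 and did not pass. Hdc, Ms4a2, Fcer1a and Gata2 are also expressed by basophils, and 4 of 4 basophil genes rose, from a summed 3.2 to 4.62 cpm to 20.6 to 55.4 cpm. No mast cell gene of the list was at or under 3 counts in all libraries of a group. Mrgprb2 thus fell in libraries where 11 of 12 mast cell genes rose. Keratinocyte genes were also higher (a summed 5481 to 7181 against 11095 to 22357 cpm), as were immune cell genes (49.2 to 95.1 against 147 to 455 cpm), and genes of smooth muscle, pericytes and fibroblasts overlapped (5018 to 12527 against 3461 to 6026 cpm). The part of these cell types in the values of Mrgprb1 and Mrgprb2 was not tested.

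The other groups had fewer mast cell genes called. The shares of all genes called differed widely between these groups too. After aGr1, where 32.6% of all genes were called, 10 of 12 mast cell genes rose (a summed 388 to 450 cpm, against at most 189 with ethanol). In BLT1 KO skin, where 28.6% were called, 8 of 12 did (396 to 432 against 208 to 234 cpm). Mrgprb2 fell in both. In TSLPR KO skin, 6 of 12 rose on day 12 and 1 on day 8, where 10% and 2.44% of all genes were called. After PBS 2 of 12 rose, on day 5 also 2, and on day 2 none did, with 0 falling in each. The shares of all genes called there were 3.99%, 14.9% and 0.257%. On day 1, 3 of 12 fell and 1 rose, where 13% of all genes were called: Cpa3 (-0.67 ± 0.1313), Mcpt4 (-0.60 ± 0.1368) and Hpgds (-0.92 ± 0.1694) fell and Kit (0.51 ± 0.1095) rose on the log2 scale. Across the 60 skin libraries, the deviations of Mrgprb1 and Mrgprb2 from their group means correlated at r = 0.88, the highest value for Mrgprb1 among 17484 genes, and Mrgprb2 was closest to Cpeb1 (0.90), as a description only.

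Mrgprb3, a related receptor gene from the list of 11 other Mas-related receptors and no member of the 9, fell further than Mrgprb2. It had 5.05 to 16.5 cpm with ethanol on day 8 without injection and 0 to 0.213 cpm (0 to 7 counts) with MC903 (edgeR adjusted p = 3.9e-07). On day 1 it had 5.08 to 11.3 cpm against 3.4 to 6.6 cpm, a log2 fold change of -0.86 ± 0.235 (edgeR adjusted p = 0.0403), when Mrgprb2 had not passed. After aGr1 the MC903 libraries held 0 to 1 counts against 89 to 120 with ethanol. Mrgprb3 was called lower in 8 of 9 groups, all but day 2, and in TSLPR KO skin of day 12 it had 2.26 to 5.92 cpm against 0.244 to 0.927 cpm.

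**Figure D5:**
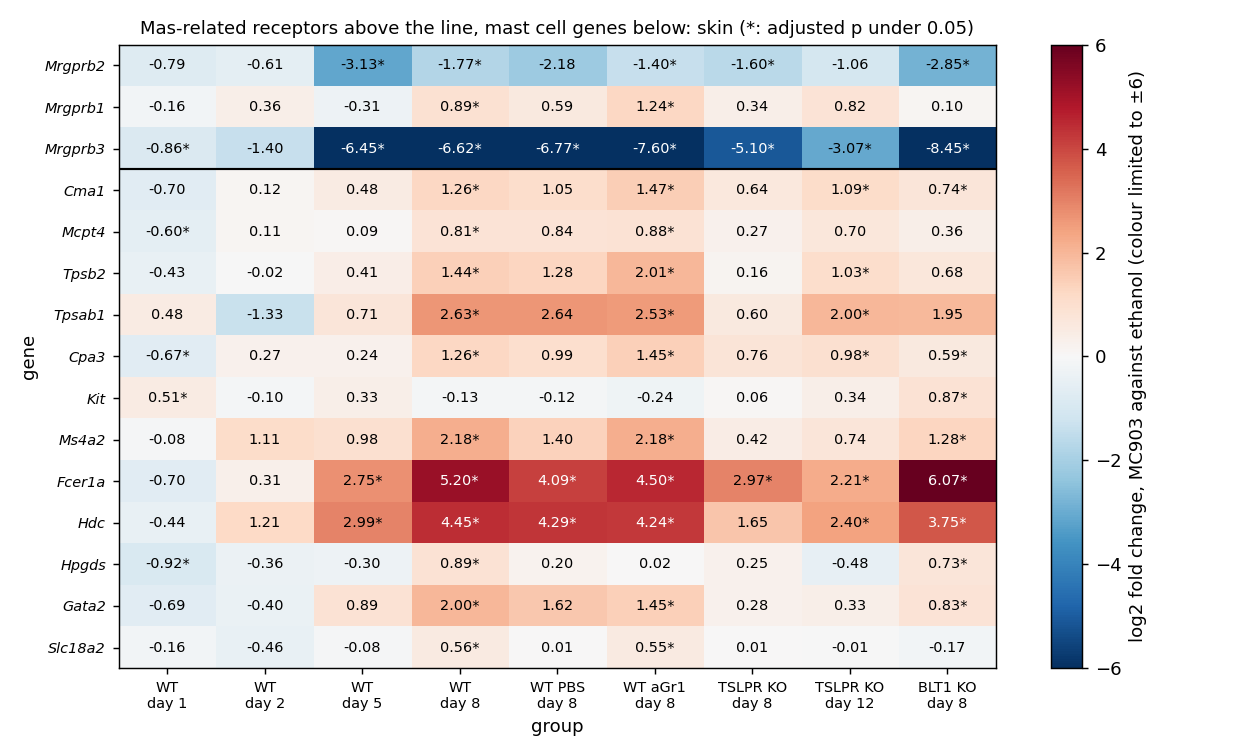
Log2 fold change of MC903 against ethanol (colour, limited to ±6) in skin for Mrgprb1, Mrgprb2 and Mrgprb3 above the line and the mast cell genes below it (vertical axis), by group (horizontal axis), with asterisks at an adjusted p under 0.05. On day 8 without injection, Mrgprb2 (-1.77) and Mrgprb3 are lower while 11 of the 12 mast cell genes are higher, and for Mrgprb3 after PBS and aGr1 the colour rests on MC903 libraries with at most 1 count.

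In spinal cord, Mrgpre and Mrgprf had measurable levels and did not pass. Without injection, Mrgpre lay at 7.32 to 8.13 cpm in 5 ethanol libraries and at 5.38 to 7.12 cpm in 4 MC903 libraries, which did not overlap. Its log2 fold change of -0.28 ± 0.122 did not pass (edgeR adjusted p = 0.16), where 12.2% of 25585 genes were called and 8.41% lay lower with no overlap. After aGr1 it had a median of 14.3 cpm (13 to 16) in 6 ethanol and 14.5 cpm (12.6 to 15.8) in 8 MC903 libraries (log2 fold change -0.01 ± 0.0593, with 11.3% of 27649 genes called). Mrgprf ranged from 0.548 to 3.91 cpm over the ethanol libraries with no call. The comparison after PBS rests on 2 libraries against 2, where 0% of 24573 genes were called (0 in edgeR, with 1571 at an unadjusted p under 0.05).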

How the data were processed

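Poly(A) RNA was sequenced as single-end reads of 50 bases, and per the labels and the study's methods the authors aligned with Bowtie2 and TopHat to mm10 and counted reads with htseq-count; the annotation release and strand setting are not given in the sources used here. The deposited files hold raw counts per gene. The 5 tally lines of each file were left out (no feature 6.2% to 21.5% and ambiguous 1.77% to 13.19% of reads). Of 46078 identifiers, 45143 matched GENCODE M21 (GRCm38), which gave symbols, positions and exon lengths.

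Levels (cpm) are counts per 1000000 of each library's gene total. MC903 and ethanol were compared within each group with edgeR 4.0.16 (R 4.3.3): TMM scaling, genes with at least 10 counts in total, quasi-likelihood F test and Benjamini-Hochberg adjustment over all genes, at adjusted p under 0.1 in ganglia and 0.05 in skin and cord. A term for label style was added on day 8 without injection. The differences of effects share the uninjected wild-type day 8 libraries, and the fits from day 5 on include these libraries too. The 95% intervals were taken from the SE and the normal distribution, so they are approximate and too narrow with few libraries. Ratios within libraries were tested by exact permutation. At most 3 counts was read as not detectable. Alternatives were DESeq2 1.42.0, other scalings and filters, a replicate block, and leaving out each library; crossed pairing in PBS cord and 0.5 added to the counts in ratios were chosen after seeing the data. Scripts were tested on simulated data. Members and gene lists were chosen with earlier results of these data known. Up to 3 called genes per list and comparison, those with the smallest p-values, were named by rule, and 1 gene is not reported here; Cma1, Tpsb2, Mcpt4 and Kit in skin, Mrgpra3 in cord and Mrgprx1 in skin were picked after seeing values.

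Of 225 pairs of libraries within a group none agreed within sampling noise (lowest chi-square per gene 2.82). Deviations of libraries with the same replicate number correlated in every pair in ganglia of day 5 (r 0.107 to 0.284) and of TSLPR KO day 12 (r 0.147 to 0.458). These groups were read as paired. The main fits and the ratio tests nonetheless held no pairing, and the paired fits are given only among the alternatives. Values were also positive in skin of day 2 (r 0.283, where 2 libraries per treatment make both pairs equal). The same held in TSLPR KO skin of day 8 (0.177 and 0.045) and TSLPR KO ganglia of day 8 (0.008), and pairing there was left undecided. Each remaining group had a negative value, and its libraries were read as sharing only a number. Python steps used pandas 2.3.3, numpy 2.4.6, scipy 1.17.1, matplotlib 3.10.9 and Biopython 1.88.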

Additional observations from a re-analysis of the deposited data

Results flagged for a closer look

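Over 61 sets of values, 1 library was far from the others in 5 sets, and chance gives about 1 in 20. Each set held 1 gene in 1 treatment group of at least 4 libraries, with a mean of at least 1 cpm. The Mrgprb2 set below reached that mean only through its far library, so these rates cannot be compared. All 5 flagged sets were in ganglia of day 1. Mrgprx1 had 0.761 cpm in MC903 replicate 1 against 6.28 to 6.83 in the other libraries, and Mrgprb2 had 5.73 cpm in that same library against 0.362 to 0.553. That library also held fewer neuron counts than the rest of its group (a summed 3953 cpm) and more keratinocyte counts (280 cpm). Among the ethanol libraries, Mrgprb4 had 9.95 cpm in replicate 1 against 14.1 to 15, Mrgprb5 had 8.3 cpm in replicate 3 against 12.1 to 12.7, and Mrgpre had 12.6 cpm in replicate 4 against 14.9 to 15.2.

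Mrgpre had log2 fold changes of opposite sign in 2 ganglion groups without overlap in either. Its log2 fold change was -0.28 after aGr1 (18, 25.2, 18.4 and 19.4 cpm with ethanol, 15.7, 14.5, 17.8 and 17.7 cpm with MC903) and 0.54 in TSLPR KO ganglia of day 8 (12.4 and 8.59 cpm against 14.1 and 15 cpm). Neither passed the threshold (edgeR adjusted p = 0.352 and 0.623). In these comparisons 4.62% of genes lay lower with no overlap after aGr1 and 17.4% lay higher in TSLPR KO ganglia of day 8, and the difference between them was not tested.

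At low counts, 2 members were seen more often with MC903. Mrgpra3 exceeded 3 counts in 11 of 14 MC903 spinal cord libraries and in 1 of 13 ethanol libraries, with 86 counts against 10 in all. After aGr1 it had 47 counts in 8 MC903 libraries and 8 counts in 6 ethanol libraries (edgeR adjusted p = 0.0153), and without injection 24 counts in 4 and 0 in 5 (edgeR adjusted p = 0.0377). It was the 1 called of the 4 members tested in each of these groups, where 11.3% and 12.2% of all genes were called. Both calls were lost with DESeq2, with filterByExpr and with a replicate block. Mrgprx1 exceeded 3 counts in 17 of 30 MC903 skin libraries and in 3 of 30 ethanol libraries, with 249 counts against 58. It was called higher after aGr1 (edgeR adjusted p = 0.0282, 16 counts against 1) and in TSLPR KO skin of day 12 (edgeR adjusted p = 0.0433, 35 counts against 3), where 32.6% and 10% of all genes were called. These counts are near the limit of detection.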

How the results depend on the processing

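Mrgprb5 in the ganglion fit from day 5 on and Mrgprb2 in the skin fit from day 5 on kept their direction and their call in all alternatives run (13 and 14). Some other calls did not, and the cause was not tested. Numbers of members called follow, first as reported. With DESeq2 they went from 1 to 2 in aGr1 ganglia, 0 to 1 in day 5 ganglia, 0 to 1 in PBS skin, in day 1 skin and in TSLPR KO skin of day 12 (Mrgprb1 and Mrgprb2 counted in skin), and 1 to 0 in aGr1 and uninjected cord. The stricter filterByExpr gave 0 in both cord groups and in TSLPR KO skin of day 8 (from 1), and no filter gave 2 in aGr1 ganglia and 1 in PBS skin. For day 8 ganglia without injection, no term for label style and the second style alone gave 0 (from 1), and the second style alone gave 1 (from 2) in skin. With wild-type day 12 as labelled, both fits from day 5 on called 1 member (from 2), and Mrgprx1 in ganglia reversed to -0.25; taken alone as labelled, wild-type day 12 called 6 members in ganglia and 0 of Mrgprb1 and Mrgprb2 in skin.

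With a replicate block, day 8 ganglia without injection gave 0 members (Mrgprb5 at -0.98 on the log2 scale, edgeR adjusted p = 0.126), aGr1 and uninjected cord 0, and the difference between BLT1 KO and wild-type skin 1 (from 0); these libraries share only numbers. In the paired groups, Mrgprb5 was -1.01 (edgeR adjusted p = 0.226) on day 5 and -1.47 (edgeR adjusted p = 0.107) in TSLPR KO ganglia of day 12, and the block changed no call there. Crossed pairing in PBS cord, added after seeing the data, called 955 genes and 0 members.

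Leaving out 1 library at a time gave 0 to 1 members in PBS cord, uninjected cord, day 2 and day 8 ganglia without injection, the BLT1 KO difference in skin, TSLPR KO skin of days 12 and 8 and day 5 skin, 1 to 2 in aGr1 ganglia and day 8 skin without injection, and 0 to 2 in PBS skin. Counts of 0 to 3 per library limit the cord and the neuronal genes in skin.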

Other observations

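Other Mas-related receptor genes, from a list of 11, appeared beside the members. In ganglia from day 5 on, Mrgpra9 rose by a log2 of 0.97 ± 0.277 (edgeR adjusted p = 0.0298) and Mrgpra6 by 1.497 ± 0.475 (edgeR adjusted p = 0.0566), 2 of the 9 tested, where 7.38% of all genes were called. In aGr1 cord, Mrgpra6 was at 0 counts in all ethanol libraries and at a mean of 0.119 ± 0.0472 cpm (SD) with MC903. Mrgprg in aGr1 skin had 0.245 ± 0.232 cpm with ethanol and 2.91 ± 0.997 cpm with MC903 (edgeR adjusted p = 0.00562).

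Precursors of peptides that act on these receptors were listed too. In skin from day 5 on, 3 of 12 tested rose and 2 fell, where 46.8% of all genes were called, with the defensin gene Defb14 up by a log2 of 6.09 and Defb1 by 2.16, while Penk, whose product gives ligands of Mrgprx1, fell by 0.58. In ganglia from day 5 on, 2 rose and 0 fell among 12 tested: Adcyap1, which encodes the neuropeptide PACAP, by a log2 of 0.48 and Tac1, which encodes substance P, by 0.30.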
